A study of Homo sapiens with 6 samples.

Results

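A pair of antibodies against the histone variant H2A.Z were used on the same human cell line, and their ChIP-seq peak lists were compared peak by peak. ChIP-seq recovers the DNA bound to a protein with an antibody, and a peak is a stretch of the genome where that DNA was called enriched. One library was made with the Cell Signaling Technology antibody (catalogue 2718S, here CST) and one with the Abcam antibody (ab4174, here Abcam). All peaks on chromosomes 1 to 22 and X were taken from both lists: 52325 CST peaks and 44634 Abcam peaks, together 96959 of the 300470 peaks in the 5 lists of the series. A peak was called shared when it overlapped a peak of the other list by at least 1 bp, and single-list when it did not. The split left 37970 shared and 14355 single-list CST peaks (27.4% of the list), and 33402 shared and 11232 single-list Abcam peaks (25.2%).

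The cells were HEK293T, a human embryonic kidney line that carries the large T antigen of a polyomavirus. No treatment or genotype distinguishes the samples. All were fixed with 1% formaldehyde for 10 min, and libraries were made from 10 ng of DNA with 13 PCR cycles and a size selection of 250 to 450 bp. The series has 6 libraries: these 2, one each for the variant H3.3 and the marks H4K16ac and H3K79me2, and an input, whose own file was not analysed here. With 1 library per antibody there is no replicate, no test was made, and differences between antibodies cannot be told apart from differences between libraries. Shares carry exact Clopper-Pearson 95% intervals, which cover counting error only, since neighbouring peaks are not independent.

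H2A.Z replaces the common histone H2A in a part of all nucleosomes. The SRCAP and TIP60/p400 complexes insert it, and the chaperone ANP32E can remove it. It is known for the nucleosomes on either side of active and poised gene starts, and for enhancers. In vertebrates it is encoded by the genes H2AZ1 and H2AZ2, whose proteins differ at a few residues. H3.3 is a replacement variant of H3 found in active chromatin, H4K16ac is an acetylation linked to open chromatin, and H3K79me2 is laid down by DOT1L along the first part of transcribed genes.

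The peaks that carry the comparison can be shown at gene starts. For each class, sequences are given for starts whose windows, from 250 bases before to 50 after the start, overlap a peak. These peaks were among the strongest of their class, and for the single-antibody classes the other list had no peak within 5 kb. They are the 250 bases before the annotated start, read 5′ to 3′ on the gene's strand, from RefSeq on GRCh38.p14. Capitals mark each CpG, the dinucleotide whose density is compared by class further on. Both antibodies had a peak at the start of ELP2, a subunit of the Elongator complex (chr18:36129649-36129898, plus strand), and of ZNF557, a zinc finger gene (chr19:7069453-7069702, plus strand).
ELP2: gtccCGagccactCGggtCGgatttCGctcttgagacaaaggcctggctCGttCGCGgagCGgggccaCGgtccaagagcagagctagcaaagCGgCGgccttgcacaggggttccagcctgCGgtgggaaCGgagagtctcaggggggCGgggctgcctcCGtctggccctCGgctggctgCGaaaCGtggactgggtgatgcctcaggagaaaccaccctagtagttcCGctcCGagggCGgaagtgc
ZNF557: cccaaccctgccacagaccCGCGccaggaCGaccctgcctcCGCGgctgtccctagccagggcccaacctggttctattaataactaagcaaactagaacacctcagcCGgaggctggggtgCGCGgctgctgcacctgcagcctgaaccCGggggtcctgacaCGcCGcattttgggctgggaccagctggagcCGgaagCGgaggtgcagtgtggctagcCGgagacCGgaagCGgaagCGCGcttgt

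CST alone had a peak in the windows of NBDY, which encodes a small protein of the RNA decapping complex (chrX:56728993-56729242, plus strand), and CYB5B, an outer mitochondrial membrane cytochrome b5 (chr16:69424369-69424618, plus strand). Their 250 bases hold 7 and 15 CpG, against 21 in ELP2 and 18 in ZNF557. The NBDY peak (chrX:56729257-56729476) and the CYB5B peak (chr16:69424620-69424975) begin downstream of the start, so the printed bases lie just before them.
NBDY: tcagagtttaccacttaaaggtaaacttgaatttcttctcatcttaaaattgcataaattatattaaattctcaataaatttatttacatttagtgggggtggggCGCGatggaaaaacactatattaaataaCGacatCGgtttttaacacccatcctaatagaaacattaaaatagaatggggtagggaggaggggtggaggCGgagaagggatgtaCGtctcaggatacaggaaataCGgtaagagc
CYB5B: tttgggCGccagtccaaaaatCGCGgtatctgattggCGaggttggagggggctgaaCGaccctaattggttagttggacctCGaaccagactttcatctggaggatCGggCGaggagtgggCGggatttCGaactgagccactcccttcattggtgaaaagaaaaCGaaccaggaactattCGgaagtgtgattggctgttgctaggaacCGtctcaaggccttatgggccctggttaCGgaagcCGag

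Abcam alone had a peak in the window of an annotated start of C12orf42 that lies inside the gene (chr12:103496136-103496385, minus strand), of PM20D2, a peptidase family member (chr6:89145805-89146054, plus strand), and of HS3ST4, a heparan sulfate sulfotransferase (chr16:25691709-25691958, plus strand). These hold 6, 23 and 27 CpG, so the C12orf42 start, which lies under the strongest of all single-list peaks, is poor in CpG while the others are rich in it. The HS3ST4 peak (chr16:25691637-25691915) ends upstream of the start, within the printed bases.
C12orf42: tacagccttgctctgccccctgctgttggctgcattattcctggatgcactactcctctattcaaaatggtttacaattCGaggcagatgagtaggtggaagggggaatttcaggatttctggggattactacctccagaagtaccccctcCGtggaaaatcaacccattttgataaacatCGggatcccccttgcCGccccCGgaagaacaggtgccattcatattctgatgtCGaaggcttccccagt
PM20D2: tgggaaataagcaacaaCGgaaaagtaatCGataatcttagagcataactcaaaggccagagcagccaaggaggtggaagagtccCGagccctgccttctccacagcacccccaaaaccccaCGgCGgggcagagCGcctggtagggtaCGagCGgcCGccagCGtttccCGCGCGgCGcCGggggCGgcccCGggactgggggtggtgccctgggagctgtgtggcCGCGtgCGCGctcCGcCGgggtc
HS3ST4: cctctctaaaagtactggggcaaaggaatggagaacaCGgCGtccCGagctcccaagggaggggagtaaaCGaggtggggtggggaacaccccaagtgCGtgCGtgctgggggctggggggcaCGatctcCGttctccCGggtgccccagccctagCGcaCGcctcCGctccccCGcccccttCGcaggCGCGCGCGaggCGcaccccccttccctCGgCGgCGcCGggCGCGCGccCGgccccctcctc

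The single-list peaks were the narrow and weak part of each list. Shared CST peaks had a median width of 381 bp and single-list CST peaks 202 bp; the Abcam medians were 492 and 224 bp. Much of the single-list class sat at the smallest width its list holds, 170 bp for CST and 180 bp for Abcam: 3707 single-list CST peaks (25.8%) against 1617 shared ones (4.26%), and 1914 single-list Abcam peaks (17.0%) against 756 shared ones (2.26%). Peaks over 1 kb wide were nearly all shared, with 2211 shared and 1 single-list for CST and 4666 shared and 10 single-list for Abcam. Fold enrichment over the control, as the authors' peak caller gave it, had medians of 10.5 and 5.80 for shared and single-list CST peaks, and of 18.0 and 6.28 for Abcam. The caller's −log10 q, the strength measure used throughout, had medians of 17.1 and 5.99 for CST and 42.5 and 7.05 for Abcam. A wider peak meets another list more easily, so width and sharing are linked by construction. The single-list shares had 95% intervals of 27.1 to 27.8% for CST and 24.8 to 25.6% for Abcam.

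The strongest single-list CST peak had a −log10 q of 33.2, while the list reaches 218. It lies at chr13:67416241-67416593 (hg38), outside genes and 186096 bp from the nearest protein-coding gene end, that of the protocadherin gene PCDH9, and 62037 bp from the nearest Abcam peak. The strongest single-list Abcam peak reached 84.8 in a list that goes to 511. It is 922 bp wide, lies at chr12:103495254-103496175 inside C12orf42, overlaps none of the other 3 lists and is 79261 bp from the nearest CST peak. Next to it in strength came a peak of 292 bp at A4GALT, a glycosyltransferase gene, with a −log10 q of 80.2 and the nearest CST peak 2837 bp away. Other strong single-list peaks were near misses: that at RNF167, a ubiquitin ligase gene, had a CST −log10 q of 26.9 and an Abcam peak 64 bp away, and the Abcam peak near the cytoskeletal linker gene MACF1 (71.5) had a CST peak 116 bp away.

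Near misses made up a larger share of single-list Abcam peaks. These were set against the longer CST list (52325 against 44634 peaks), and the part of list size was not tested. The median gap from a single-list peak to the other list was 4132 bp for CST and 1524.5 bp for Abcam. A peak of the other antibody lay within 500 bp of 20.2% of single-list CST peaks and 32.9% of single-list Abcam peaks, and within 1 kb of 28.4% and 43.9%. At gene ends these near misses were the majority, with a peak of the other list within 1 kb for 939 of 1683 single-list CST peaks (55.8%) and 2015 of 2817 single-list Abcam peaks (71.5%). Away from gene ends the shares were 24.7% and 34.7%. Peaks far from the other list also existed: 4730 single-list CST peaks (33.0%) and 2922 Abcam peaks (26.0%) lay more than 10 kb from it, and 690 and 683 more than 100 kb.

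The 1 bp rule divided few peaks narrowly. In the CST list 54 peaks overlapped by less than 10 bp and 56 missed by less than 10 bp, with median −log10 q of 6.49 and 6.36. In the Abcam list 46 overlapped and 39 missed by that margin, with medians of 6.58 and 6.41. Peaks just inside and just outside the rule were of like strength, and both groups were close to the single-list medians.

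Where peaks were shared, the antibodies placed them at nearly the same point. For the 27236 pairs in which 1 CST peak met 1 Abcam peak, the summits, the points of highest enrichment, lay a median of 35 bp apart, and 87.5% lay within 150 bp, about the DNA that a nucleosome wraps. Across these pairs the rank correlation was 0.83 for −log10 q, 0.81 for fold enrichment and 0.75 for width, as a description of pairs that share 1 genome and 1 caller. The Abcam peak was the wider one in 66.0% of pairs. Shared CST peaks had a median of 98.3% of their bases inside Abcam peaks, while shared Abcam peaks had 83.9% inside CST peaks. Abcam peaks also bridged several CST peaks more often than the reverse: 4777 shared Abcam peaks (14.3%) met 2 or more CST peaks, against 810 CST peaks (2.13%) that met 2 or more Abcam peaks. Of the 5 widest Abcam peaks 4 met several CST peaks. The widest, at chr12:34343294-34348144 outside genes, spanned 4851 bp and 4 CST peaks. The peak over the JADE2 gene, a chromatin protein of HBO1 complexes, spanned 4181 bp and 5 CST peaks, that in WNT5A, a secreted signalling ligand, spanned 3929 bp and 4 CST peaks, and that touching the homeobox gene LHX1 spanned 3677 bp and 4 CST peaks. The other, at chr12:34334766-34338397, spanned 3632 bp and met 1 CST peak.

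Position relative to genes differed between the classes. A gene end is here either end of 1 of 19451 protein-coding genes of at least 1 kb, and a peak is at the end when its summit lies within 1 kb of it. Shared CST peaks were at a gene end in 49.5% and single-list CST peaks in 11.7% (95% interval 11.2 to 12.3). For Abcam the shares were 47.9% (47.4 to 48.5) and 25.1% (24.3 to 25.9). Median distances to the nearest end were 1039.5 and 13351 bp for shared and single-list CST peaks, and 1192.5 and 7892.5 bp for Abcam. Single-list CST peaks lay outside any gene in 38.3%, against 18.4% of shared ones; for Abcam these shares were 32.6% and 19.6%. The gap between shared and single-list peaks was wider for CST, at 37.8 percentage points (37.0 to 38.5), than for Abcam, at 22.9 (21.9 to 23.8). When a peak of the other list within 1 kb was enough to count as shared, the Abcam difference was 34.3 points and the CST difference 39.7.

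Within classes of strength the lists gave different pictures. Each list was cut into quartiles of −log10 q, from the weakest to the strongest. Shared CST peaks were at gene ends in 28.2%, 35.1% and 49.1% of the first to the third quartile, and single-list CST peaks in 10.8%, 12.7% and 15.1% (n = 8440, 5143 and 769). Shared Abcam peaks were there in 18.4%, 28.2% and 52.4%, and single-list Abcam peaks in 19.0%, 32.0% and 53.0% (n = 6879, 3784 and 568). Single-list CST peaks stayed under shared ones in each of these quartiles. For Abcam the intervals of the classes overlapped in the first and the third quartile, and in the second the single-list interval (30.5 to 33.5) lay above the shared one (27.2 to 29.3). Near misses were more frequent at gene ends than away from them, so leaving them out takes gene-end peaks from the single-list class by construction. Their part in the Abcam pattern was not tested. Single-list peaks with no peak of the other antibody within 1 kb were at gene ends in 7.1%, 7.5% and 7.5% for CST and in 9.9%, 16.8% and 36.8% for Abcam. Strength was not equal within a quartile: in the third the median −log10 q was 16.9 for shared and 12.7 for single-list CST peaks, and 43.9 and 26.9 for Abcam. Quartiles of width gave another picture for Abcam, with 23.9%, 37.9%, 52.2% and 60.9% of shared and 23.2%, 27.1%, 29.9% and 29.9% of single-list peaks at gene ends (the last on 87 peaks). For CST single-list peaks stayed between 11.2% and 12.5% in every width quartile, and shared ones between 37.99% and 57.1%. The strongest quartile of −log10 q held 3 single-list CST peaks and 1 single-list Abcam peak, too few for a share.

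**Figure D1:**
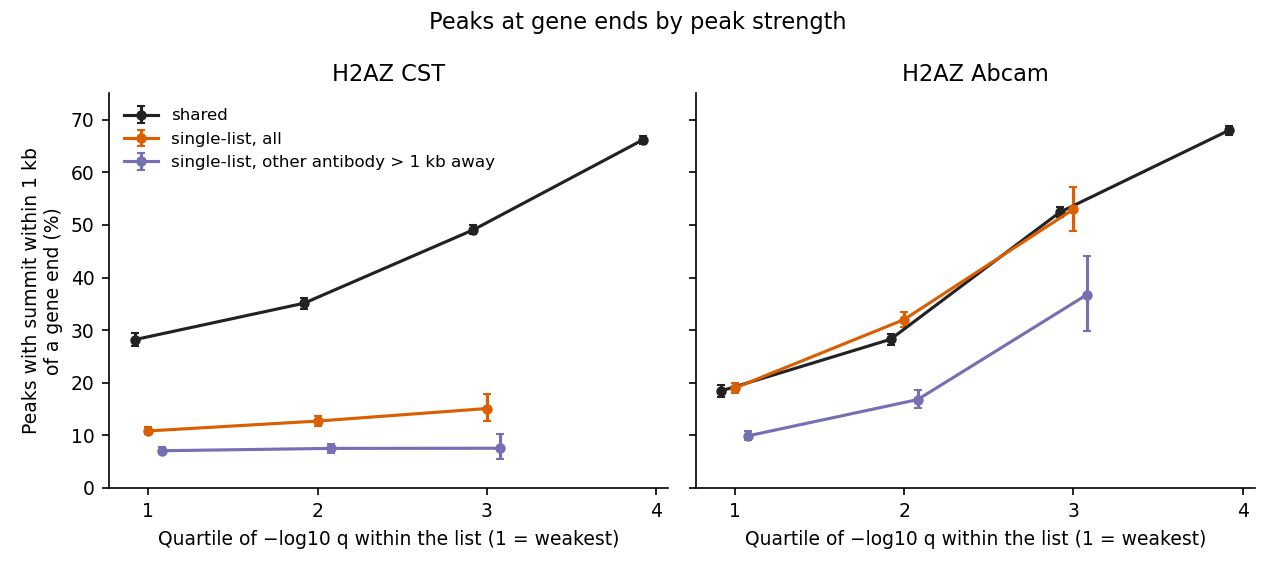
Share of peaks with a summit within 1 kb of a protein-coding gene end (%), by quartile of −log10 q within each list, for shared peaks, all single-list peaks and single-list peaks with the other antibody more than 1 kb away. Bars are exact 95% intervals and classes under 50 peaks are left out. In the CST panel the single-list points stay between 7.1% and 15.1%, while in the Abcam panel all single-list peaks follow the shared ones up to 53.0%.

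Around gene starts, shared peaks followed the known outline of H2A.Z and single-list peaks did so faintly. Summits were placed on 13025 starts of known strand that had no start of the opposite strand within 2 kb. In all 4 classes the fullest 100 bp was that from 100 to 200 bp downstream of the start. It held 14.8% of the shared CST summits within 2 kb of a start (n = 14778) and 6.18% of single-list CST summits (n = 1360). For Abcam it held 17.4% of shared (n = 12459) and 6.53% of single-list summits (n = 2375). The first 500 bp downstream held 38.9% of shared and 16.3% of single-list CST summits, and 42.6% and 25.3% for Abcam. Single-list summits lay further out instead, with 29.1% of CST and 23.2% of Abcam more than 500 bp upstream, against 10.9% and 10.7% of shared ones. Among shared peaks neither antibody lay to one side: over 9771 pairs near starts the Abcam summit was a median of 1 bp further downstream than the CST summit, further downstream in 50.1% and further upstream in 48.3%.

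**Figure D2:**
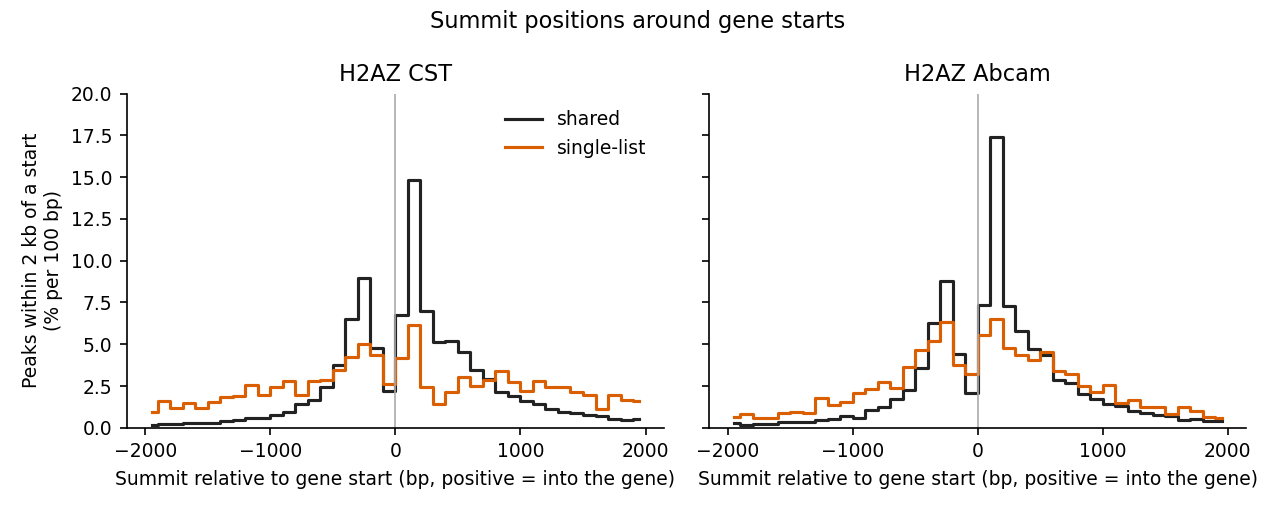
Summit positions within 2 kb of a gene start, in bins of 100 bp, as a percentage of all such summits of a class; positive positions run into the gene. Shared peaks of both antibodies stand in a double crest around a dip at the start, with 14.8% (CST) and 17.4% (Abcam) in the highest bin, and single-list peaks are flatter, with 6.18% and 6.53%.

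Taken over all strengths and widths, single-list peaks overlapped the other 3 lists less. For H3.3, 64.5% of shared CST peaks and 21.6% of single-list ones were overlapped (single-list interval 20.9 to 22.3), and for Abcam 65.9% and 33.3% (32.4 to 34.2). The largest ratio was for H3K79me2, at 43.0% and 5.66% for CST and 42.3% and 14.3% for Abcam. The smallest was for H4K16ac, at 48.1% and 27.0% for CST and 51.0% and 33.5% for Abcam. None of the 3 lists overlapped 62.6% of single-list CST peaks and 47.9% of single-list Abcam peaks, against 21.8% and 21.5% of shared ones. Among single-list peaks H4K16ac was the list most often found by itself: it alone overlapped 13.7% of single-list CST peaks and 11.9% of single-list Abcam peaks, against 5.64% and 5.96% of shared peaks. Among shared peaks H3.3 alone was more frequent, at 12.3% for CST and 11.8% for Abcam.

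**Figure D3:**
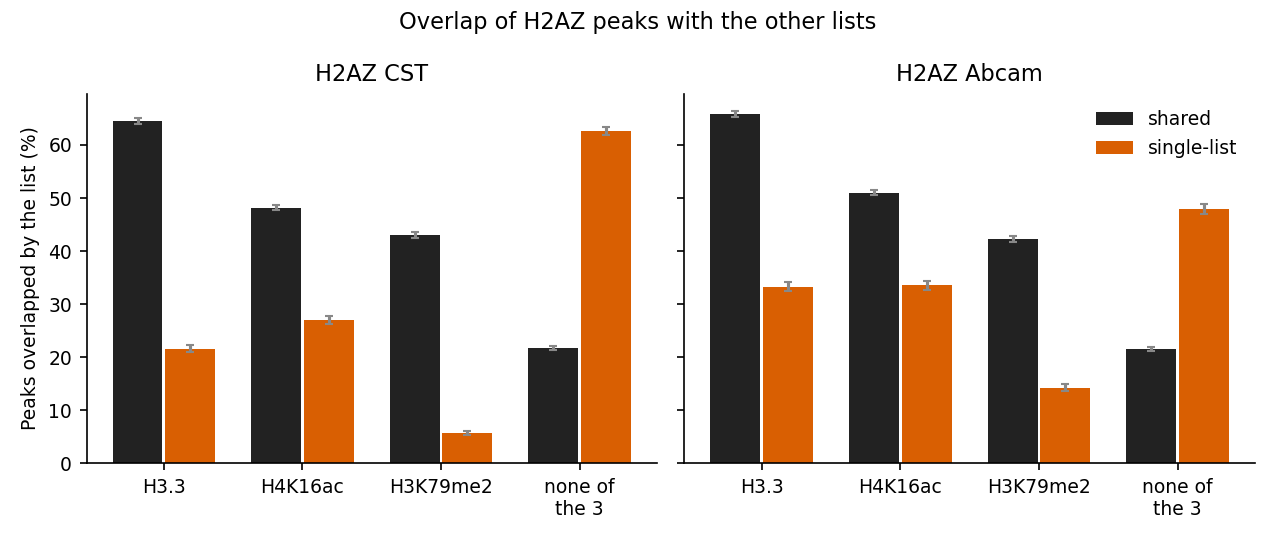
Share of H2AZ peaks (%) overlapped by at least 1 bp by the H3.3, H4K16ac and H3K79me2 lists or by none of them, for shared and single-list peaks of each antibody, with exact 95% intervals. Shared peaks of both antibodies have nearly the same profile, while 62.6% of single-list CST and 47.9% of single-list Abcam peaks meet no other list.

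Position and strength both moved with these overlaps. Among peaks at gene ends, H3K79me2 overlapped 64.9% of shared and 19.8% of single-list CST peaks, and 66.4% and 32.9% of Abcam peaks. Outside genes it overlapped 6.001% and 0.419% of CST and 5.49% and 1.75% of Abcam peaks. H3.3 at gene ends overlapped 71.5% of shared and 32.0% of single-list CST peaks, and 74.9% and 31.9% of Abcam peaks. Outside genes H3.3 overlapped 14.0% of single-list CST and 27.8% of single-list Abcam peaks, so the higher H3.3 share of single-list Abcam peaks lay away from gene ends. In the second strength quartile H3K79me2 overlapped 27.1% of shared and 5.97% of single-list CST peaks, but 18.3% of shared and 22.5% of single-list Abcam peaks. In the first and the third quartile the Abcam shares were 8.79% and 47.3% for shared and 7.18% and 45.2% for single-list peaks, and in the second quartile of width 29.4% and 14.3%. Without the near misses within 1 kb the single-list shares in the second strength quartile were 2.89% and 9.83%. H4K16ac in the third quartile of strength overlapped 39.7% of shared and 14.2% of single-list CST peaks, and 43.9% and 24.3% of Abcam peaks. In weaker Abcam peaks the gap was small, at 36.03% and 35.05% in the first quartile and 34.6% and 32.2% in the second. By quartile of width the Abcam order changed. Shared and single-list shares were 27.9% and 29.9% in the first, and 34.1% and 37.4% in the second. They were 50.9% and 41.99% in the third, and 72.3% and 49.4% in the fourth. Among single-list peaks of both antibodies, the H4K16ac share was lower in stronger peaks, from 30.1% in the first to 14.2% in the third quartile for CST and from 35.1% to 24.3% for Abcam.

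Promoter sequence separated the classes. RefSeq windows of 300 bases, from 250 before to 50 after a start, were sorted by the peaks that overlap them. Of 21611 windows, 11760 (54.4%) met both antibodies, 492 (2.28%) CST alone, 1419 (6.57%) Abcam alone and 7940 neither. The median window with both held 27 CpG, that with Abcam alone 29, that with CST alone 10 and that with neither 5. The CpG observed over expected ratio, which corrects for base composition, had medians of 0.84, 0.85, 0.44 and 0.30 in the same order, and the GC share 66.7%, 68.0%, 58.7% and 51.3%. CST-alone windows were CpG-poor in every quartile of the CST list. Their median CpG was 9, 10, 12.5 and 10, against 22, 25, 27 and 27 in windows with both. Abcam-alone windows had 16, 24, 35 and 35 by quartile of the Abcam list, against 14, 21, 26 and 28 with both. These classes go by window, so a peak over a window of 1 antibody alone can overlap the other list outside it. The strongest CST quartile gave 45 CST-alone windows but held 3 single-list CST peaks.

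Much of the CpG-rich Abcam-alone class lay close to a CST peak. Of its 1419 windows, 1093 (77.03%) had a CST peak within 1 kb, and their median was 32 CpG. Part of the class lay under shared Abcam peaks: 290 windows met a peak of the strongest Abcam quartile, which held 1 single-list peak. The 228 windows with no CST peak within 5 kb had a median of 19. Of the 492 CST-alone windows, 269 (54.7%) had an Abcam peak within 1 kb, with a median of 12 CpG, and the 143 with none within 5 kb had 9. The CpG gap between the single-antibody classes was smaller in windows with no peak of the other list within 5 kb, and kept its direction. At the annotated starts of genes marked by 1 antibody at an end with no peak of the other within 5 kb, the medians were 10 CpG for CST (n = 147) and 17 for Abcam (n = 193), against 27 for genes with both.

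Read the other way, the rate of single-antibody calls varied with CpG. Windows were cut into 5 classes by CpG count. In the class with the fewest (0 to 5), 290 of 4463 met any H2AZ peak; CST alone accounted for 37.2% of those (31.7 to 43.1) and Abcam alone for 27.2% (22.2 to 32.8). In the class with the most (35 to 69), 3469 of 4008 met a peak; CST alone accounted for 0.519% (0.308 to 0.819) and Abcam alone for 15.2% (14.1 to 16.5). Between these, the shares were 11.0% for CST and 13.8% for Abcam at 6 to 16 CpG, and 0.930% and 6.71% at 26 to 34 CpG. The CST share fell through all 5 classes, while the Abcam share was lowest at 17 to 25 CpG (6.55%). The median GC share of the windows moved with CpG, from 45% in the class with the fewest CpG to 76% in that with the most, and its part in these shares was not tested.

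**Figure D4:**
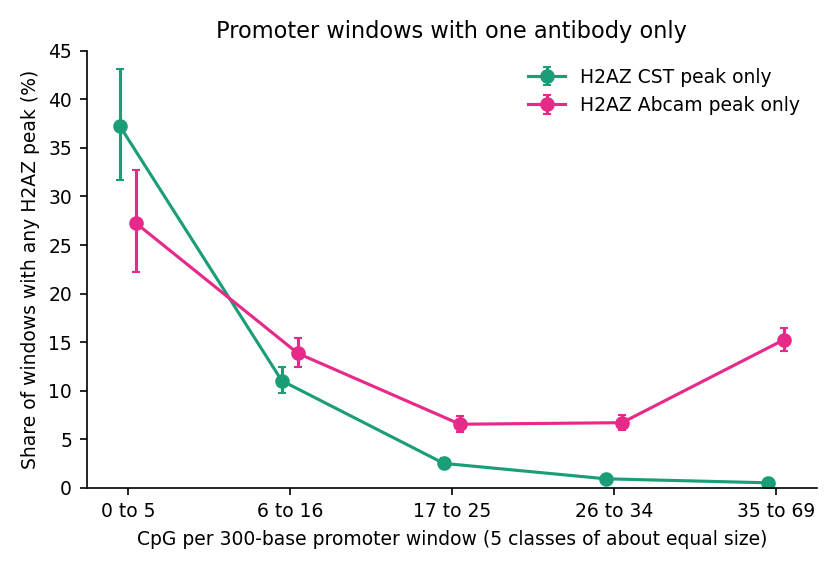
Share of promoter windows with any H2AZ peak (%) that had a peak of one antibody alone, by CpG count of the 300-base window in 5 classes of about equal size, with exact 95% intervals. CST-alone windows go from 37.2% at 0 to 5 CpG to 0.519% at 35 to 69 CpG, while Abcam-alone windows go from 27.2% through 6.55% and back up to 15.2%.

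Short motifs were counted in the same windows, on both strands, as a description. GGGCGG, the core of the GC box, holds a CpG itself; it stood in 75.4% of windows with both antibodies, 73.9% with Abcam alone, 42.7% with CST alone and 27.7% with neither, against 57.0% of all windows. CCGGAAG, an ETS-type element, stood in 18.9%, 10.9%, 12.4% and 4.53% (12.9% of all), so that it was less frequent in either single-antibody class than in windows with both. TATAAA stood in 3.98%, 6.20%, 9.15% and 16.8% (8.94% of all). CCAAT differed little, at 33.3%, 33.7%, 35.0% and 36.3% (34.4% of all). Among the printed sequences with their 50 following bases, GGGCGG was found on either strand for ELP2, CYB5B, C12orf42, PM20D2 and HS3ST4, and not for ZNF557 and NBDY.

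Counted by gene, the lists differed little. Both antibodies had a peak at an end of 13260 of the 19451 genes (68.2%), CST without Abcam at 501 (2.58%) and Abcam without CST at 560 (2.88%). These classes, and the family counts below, go by the end window, so a shared peak can count as 1 antibody alone. Their end peaks reached 107 for CST and 446 for Abcam, while single-list peaks reached 33.2 and 84.8. The peaks of SLC17A9 (CST) and WNT10A (Abcam) were shared ones of this kind. Under a stricter rule, with no peak of the other list anywhere from 5 kb before to 5 kb after the gene, 212 genes (1.09%) were left for CST and 266 (1.37%) for Abcam; with the other list absent for 20 kb on both sides, 100 were left for CST. The strict Abcam genes were marked at their start rather than their far end in 191 of the 205 with a known strand (93.2%), and the strict CST genes in 129 of 156 (82.7%). The other lists differed between them. H3K79me2 had a peak at an end of 29.3% of strict Abcam genes (23.9 to 35.2) and 16.5% of strict CST genes (11.8 to 22.2). H4K16ac had one at 28.6% of strict Abcam genes (23.2 to 34.4) and 42.9% of strict CST genes (36.2 to 49.9), while H3.3 was alike, at 27.8% and 26.9%. At genes with both antibodies these shares were 77.9%, 71.8% and 86.8%.

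The strict CST genes had modest peaks. FAM156A led with a −log10 q of 21.6, a gene with a near-identical copy, so its reads are of uncertain origin. CYB5B, whose upstream bases are printed above, followed with 19.0 and a width of 356 bp. The chemokine gene CCL26 had 18.1 and CCDC174, an RNA processing factor, 17.5. A single peak of 16.1 with its summit 151 bp into ENTHD1 and 211 bp upstream of GRAP2, an adaptor of T cell signalling, counted for both. CD3D, a chain of the T cell receptor complex, had a peak of 15.1 at its far end, 3832 bp from its start. ZNF484, EXOSC2, a subunit of the RNA exosome, and GPRASP1 had 13.6, 13.0 and 12.7, the last at its far end. All had no Abcam peak within 5 kb of the gene, and the nearest one to the CYB5B peak was 6685 bp away.

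The 10 strict Abcam genes with the strongest peaks ran from a −log10 q of 54.4 to 33.1. SALL3, a zinc finger regulator of development, led, with its summit 729 bp upstream of its start. RMI2, of the BLM helicase complex, had 50.3, and KCNQ3, a neuronal potassium channel, 47.2 with no CST peak for 194686 bp. LRRC4, a synaptic adhesion protein, had 44.1 and HS3ST4 36.8, the latter 433023 bp from the nearest CST peak. DMRT1, a sex-determination factor, had 35.1 at its far end. MFHAS1 also had 35.1, H2BC5, a histone gene, 34.6 at its far end, and ADAMTS18, a secreted protease, 33.1. NBPF8, with 33.4, belongs to a family of near-identical copies and is uncertain. The scales of −log10 q differ between the lists, so these values are not compared with those of the CST genes.

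Genes that make and place H2A.Z were marked by both antibodies in all cases, 17 of 17, against 68.2% of all genes. KAT5, the TIP60 acetyltransferase, had a −log10 q of 196 with CST and 292 with Abcam, SRCAP, the exchange ATPase, 155 and 299, and DMAP1, a subunit shared by both complexes, 90.4 and 276. ZNHIT1 of the SRCAP complex had 57.5 and 219, and ANP32E 11.1 and 66.5. Of the H2A.Z genes themselves, H2AZ1 had 31.7 and 101 at peaks that overlap. H2AZ2 had 14.8 with CST, 524 bp upstream of its start, at a shared peak with 86.4% of its bases inside the Abcam list. The Abcam value for H2AZ2, 6.47, belongs to another peak, 241 bp downstream of the start and 500 bp from the nearest CST peak. A peak says that the variant was called at the gene and is no expression level.

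Housekeeping families had both antibodies at most members, where 68.2% of all genes had both. Both marked 69 of 75 mitochondrial ribosomal protein genes, 72 of 83 cytosolic ribosomal protein genes, 35 of 39 proteasome genes, 34 of 36 genes for NADH dehydrogenase, and 34 of 39 kinesins. The other 5 kinesins had neither, so none had 1 antibody alone. Among all genes with any H2AZ end peak, 7.41% had 1 antibody alone; among these families the count was 2 of 71, 6 of 78, 2 of 37, 1 of 35 and 0 of 34. The zinc finger genes of ZNF symbol were close to the background too, with 24 of 408 marked genes (5.88%) and 384 of 508 members with both.

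Other families had a larger part of their marked members with 1 antibody: 9 of 24 HOX genes, 6 of 18 cadherins, 5 of 15 clustered protocadherins, 8 of 15 keratins and 6 of 13 chemokines. Of 39 HOX genes, the homeobox regulators of body axis, 15 had both, 3 CST alone (HOXA9, HOXB5 and HOXB6), 6 Abcam alone and 15 neither. HOXC9 led the Abcam ones at 17.4. HOXA7 and HOXB9 had 13.1 and 9.41. HOXB5 and HOXB6 share 1 weak CST peak of 4.10, and HOXA9 had 6.10 at its far end, with an Abcam peak 1062 bp away. Of 23 cadherins, which join cells, 12 had both, 1 CST alone and 5 Abcam alone. Among these, CDH7 had 23.7 with no CST peak for 1765251 bp, and CDH18 had 8.0 with none for 587046 bp. Of 53 clustered protocadherins 10 had both, 1 CST alone (PCDHGA10, 10.1), 4 Abcam alone and 38 neither; their gene models overlap, so 1 peak can count for several.

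Among keratins and chemokines more members had CST alone than Abcam alone, where all genes had 2.58% and 2.88%. Of 55 keratins, the intermediate filaments of epithelia, 7 had both, 5 CST alone and 3 Abcam alone; all 5 CST ones, among them KRT23 (7.90), KRT75 (7.60), KRT13 (5.38) and KRT78 (5.33), had no Abcam peak within 5 kb, and none of the 3 Abcam ones was as isolated. Of 41 chemokines 7 had both, 5 CST alone and 1 Abcam alone. CCL26 had 18.1 and CCL24, its neighbour on chromosome 7, 6.59, and CCL25 and CCL22 had 9.26 and 7.90. The peaks of CCL24 and CCL25 were at their far ends. The cancer-testis genes of the MAGE, GAGE and SSX type had no shared peak. Of 57, 51 had no H2AZ end peak, 2 had CST alone (MAGEA10 at 9.26 and PAGE1 at 6.07) and 4 had Abcam alone (PAGE3, PAGE4, MAGEB2 and XAGE2, from 4.42 to 6.76). Several of these have near-identical copies on X, so the placement of their reads is uncertain. These counts are small, and no family was tested against the rest.

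In the remaining families the picture was mixed. Of 64 other homeobox genes 47 had both antibodies, 3 CST alone, among them LHX3 and PAX2, and 3 Abcam alone (IRX4, TLX2 and TLX1). The peaks of LHX3, PAX2 and TLX1 were at their far ends. Of 51 forkhead factors 33 had both, 1 CST alone (FOXN1) and 3 Abcam alone, led by FOXB1 at 29.1. The SOX factors had 15 of 19 with both, with SOX10 under a CST peak of 4.70 alone and SOX11 under an Abcam peak of 26.9 alone. Of 96 potassium channel genes 62 had both, 4 CST alone and 6 Abcam alone, and 5 of the 6 had no CST peak within 5 kb, among them KCNIP4, which modulates these channels (30.1), with the nearest CST peak 566486 bp away. Of 379 solute carriers 246 had both, 11 CST alone and 16 Abcam alone. WNT ligands had 12 of 19 with both, orphan G protein coupled receptors 34 of 71, cytochromes P450 18 of 55, keratin-associated proteins 5 of 32, olfactory receptors 5 of 241 and beta defensins 1 of 37, against 68.2% of all genes. Of the marked members, 6 of 11 keratin-associated genes and 5 of 10 olfactory receptor genes had 1 antibody alone, against 7.41% of all marked genes. Most replication-dependent histone genes are shorter than 1 kb, and of the 8 that passed, 3 had both antibodies and 2 (H2BC5 and H2BC12) Abcam alone.

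Among markers chosen to check the cell line, 6 of 7 genes known to be active in HEK293T (EYA1, NEFL, NEFM, VIM, KRT8 and KRT18) had both antibodies at an end, against 68.2% of all genes. Their −log10 q ran from 13.5 to 38.4 for CST and from 33.4 to 143 for Abcam. KRT8 and KRT18 had the same values, 25.9 with CST and 70.4 with Abcam, so they may count the same peaks. PAX2, a kidney developmental factor, had a CST peak alone, of 4.16 and at its far end. Among markers of blood, liver, muscle and endothelium, PTPRC, ALB and MYH7 had neither antibody, while CD3E had peaks of both (11.3 with CST and 32.5 with Abcam), as had PECAM1 (8.57 and 22.1).

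By chromosome the single-list shares of the antibodies did not move together. Single-list CST peaks went from 19.7% on chromosome 18 (16.6 to 23.1) and 20.5% on chromosome 8 to 34.7% on chromosome 21 and 36.7% on chromosome 22 (34.5 to 39.0). Single-list Abcam peaks went from 20.4% on chromosome 19 (19.1 to 21.9) and 20.9% on X to 29.7% on chromosome 21 and 30.1% on chromosome 18 (26.5 to 33.9). Chromosome 18 was lowest for CST and highest for Abcam, and chromosome 21 was high for both. Over the 23 chromosomes the rank correlation between the shares was −0.02 (Pearson −0.03). The number of CST peaks for each Abcam peak ran from 1.02 on chromosome 18 to 1.33 on chromosome 22.

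Peak strength moved with the CST shares: over the 23 chromosomes, the median −log10 q of CST peaks and their single-list share had a rank correlation of −0.77 (Pearson −0.88), and for Abcam it was −0.46 (Pearson −0.48). Chromosome 22 was above chromosome 18 for CST in classes of strength too, by less among the weakest peaks. With −log10 q of at least 5 in both lists the CST share was 15.6% on chromosome 18 and 30.2% on chromosome 22. In the first quartile of strength, single-list CST peaks were 63.4% on chromosome 18 and 71.5% on chromosome 22, and single-list Abcam peaks 77.4% and 50.3%. In the second quartile, single-list CST peaks were 27.6% on chromosome 18 and 49.3% on chromosome 22, and single-list Abcam peaks were 41.6% and 29.8%. Gene density had a rank correlation of −0.47 (Pearson −0.58) with the Abcam share, and its part was not tested. With the CST share the measures differed in sign, at 0.34 and Pearson −0.04.

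**Figure D5:**
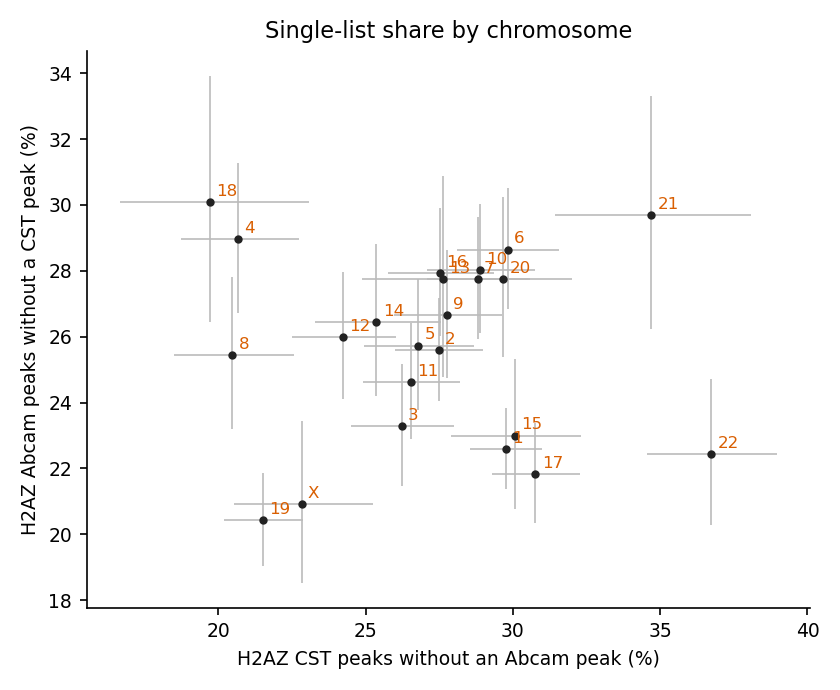
Single-list share of CST peaks against that of Abcam peaks (%), 1 point per chromosome with exact 95% intervals. Chromosome 22 lies far right at 36.7% for CST, chromosome 18 at the upper left with 19.7% and 30.1%, and chromosome 21 is high on both axes.

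Single-list peaks were spread over 1966 of the 2572 windows of 1 Mb with a CST peak and 2198 of the 2640 with an Abcam peak. The windows with the most of them were dense in all peaks, and their shares are to be read against 27.4% and 25.2% over the lists. The window at 37 to 38 Mb of chromosome 22 held 73 single-list CST peaks among 145 (50.3%), with 92 Abcam peaks. The window at 136 to 137 Mb of chromosome 9 was high for both, with 67 of 202 CST peaks (33.2%) and 77 of 196 Abcam peaks (39.3%) in a single list. For CST it was followed by 50 to 51 Mb of chromosome 17 (64 of 160), and for Abcam by 1 to 2 Mb of chromosome 16 (69 of 172) and of chromosome 1 (66 of 168). Windows with any single-list peak held a median of 3.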

How the data were processed

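ChIP-seq of HEK293T cells was analysed from 5 deposited peak lists, 1 library each. The tools named per the submitters' processing notes are MACS2 2.1.0, Bowtie 1.1.2, Trimmomatic 0.33 and bcl2fastq 2.17, and the build is hg38. Caller settings, the control and read depth were not given in the sources used here. Values the authors deposited for each peak are a score, fold enrichment (ratio), and −log10 p and −log10 q. Each list belongs to 1 library, and every value of −log10 q was above 2, so weaker signal is not seen. The score was not used.

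Peaks on chromosomes 1 to 22 and X were compared in Python 3.11.15 with pandas 2.3.3, numpy 2.4.6 and SciPy 1.17.1; 11 CST and 11 Abcam peaks lay elsewhere. Any overlap of at least 1 bp counted. Gene positions came from RefSeq on GRCh38.p14, which has the coordinates of hg38. Strand was known for 15412 of 19451 protein-coding genes of at least 1 kb. The code was tested on simulated peaks. Named genes were the 10 strict genes per antibody with the highest −log10 q, the 5 strongest end peaks, the strongest single-list and widest peaks, up to 4 members per family with 1 antibody, and all exchange genes. Peaks named as near misses, A4GALT, NBDY and PM20D2 were chosen after their values were seen. Classes, families and genes were chosen with earlier results of these data known. Alternatives varied the overlap, strength, gene-end and gene rules. Some genes that the naming rule covers are not reported here.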

Additional observations from a re-analysis of the deposited data

How the results depend on the processing

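The 14 results were recomputed in 54 combinations of a result and an alternative. None reversed. Of these, 36 moved, which means beyond the 95% interval for shares and differences, at the second decimal for width ratios and by over 1.5 times for gene counts, and all 30 differences between shared and single-list peaks stayed positive. Requiring 50% of a peak to be covered gave shared shares of 69.2% (CST) and 67.6% (Abcam), width ratios of 1.86 and 2.02, differences in H3.3 overlap of 41.4 and 28.5 points and in H4K16ac overlap of 19.7 and 15.4 points, and for Abcam 21.7 points at gene ends and 26.4 for H3K79me2. Counting a peak of the other list within 1 kb as shared gave shares of 80.3% and 85.9%, width ratios of 1.77 and 2.01, gene-end differences of 39.7 and 34.3 points, 44.3 for H3.3 (CST), and for Abcam 13.4 for H4K16ac and 34.2 for H3K79me2. With −log10 q of at least 5 in all lists the CST shared share was 76.3%, the width ratios 1.88 and 2.172, and the CST differences 39.2 points at gene ends, 45.4 for H3.3 and 39.1 for H3K79me2, with 15.8 for H4K16ac with Abcam. The 10000 strongest peaks of each list were shared in 81.8% and 76.9%, and lists with peaks within 500 bp merged in 69.7% and 77.8%. Gene-end windows of 500 bp gave differences of 30.8 and 21.4 points, windows of 5 kb 34.7 and 20.1, and all annotated genes 21.8 for Abcam. With no Abcam peak within 20 kb of the gene, 100 strict CST genes were left of 212, and with no CST peak within 20 kb 178 strict Abcam genes of 266; the other settings gave 161 to 298 and 230 to 356. No paired analysis was possible because each antibody has 1 library. The lists hold called peaks, so signal under the caller's threshold, and with it whether a single-list site lacks the other antibody, is not seen.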
